A study of Mus musculus with 4 samples.

Results

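Serotonin is made, taken up and sensed through a small set of genes, and 9 of them were followed over sections of mouse brain organoids: Tph1 and Tph2 (synthesis), Slc6a4 (transport), Fev (a transcription factor of serotonergic neurons) and the receptor genes Htr1a, Htr2a, Htr2c, Htr4 and Htr7. They were chosen by symbol (TPH1, TPH2, SLC6A4, FEV, HTR1A, HTR2A, HTR2C, HTR4 and HTR7, without regard to case), and all 9 were listed in each of the 4 sections. They are 9 of the 22218 genes listed in any section and of the 19783 listed in all of them. The question was how these genes stood after different agonists of the retinoic acid receptors.

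Organoids were grown from mouse embryonic stem cells of the CARLIN/Cas9 genotype, a line that carries a lineage barcode and Cas9, and were sectioned after 3 months. Cells were seeded at 5000 per well with an inhibitor of activin and TGF-beta receptors, then given neural induction medium, Matrigel and B27 without vitamin A, in all groups alike. On day 9 the treatments began, with 2% of the B27 supplement that contains vitamin A (VitaminA section), 1 µM ATRA, the agonist of all retinoic acid receptors, 1 µM BMS753, an agonist of receptor alpha, or BMS961 with BMS641, agonists of receptors gamma and beta, at 0.1 µM. The dose of the pair therefore differs from that of ATRA and BMS753, and the VitaminA group is not free of retinoid precursor. Each group has 1 section, so there is no replicate, no test and no p-value, and a difference between treatments cannot be told apart from one between sections. Several organoids were frozen in a mold, and all came from a single line.

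In the brain, serotonin neurons lie in the raphe nuclei of the hindbrain and send axons to most of the forebrain and spinal cord. Tryptophan hydroxylase starts synthesis from tryptophan. Tph2 encodes the enzyme of neurons and Tph1 that of the gut, the pineal gland and mast cells. The transporter encoded by Slc6a4 takes released serotonin back up, and the factor encoded by Fev (also called Pet1) switches on the genes of synthesis and transport. The receptors are coupled to G proteins. That of Htr1a is inhibitory, those of Htr2a and Htr2c act through phospholipase C, and those of Htr4 and Htr7 raise cyclic AMP. Htr2c is abundant in the choroid plexus.

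The sections held 552 spots (VitaminA), 593 (ATRA), 469 (BMS753) and 365 (BMS961+BMS641). A spot is a small area that can hold several cells, so that fewer cells of a type and less RNA per cell cannot be told apart. A level is the mean of the authors' quantile-normalised signal over the spots of a section, given as its share, in ppm, of the signal of all genes. A gene was counted as seen in a spot where it stood above the lowest class, the run of lowest values that follows the order of genes in the table. In all but 1 spot of each section, the genes listed at 0 came before this run in that order, so a value in it or at 0 carries no rank. Fev, for example, was above 0 in 89.7% of ATRA spots but above the lowest class in 6.91%. The median number of genes seen per spot was between 3330 (BMS753) and 4659 (VitaminA). Reads and molecules per spot are unknown. Exact binomial intervals (95%) on shares of spots cover the counting of spots alone. Among neuronal markers, Rbfox3 was seen in between 87.5% and 96.6% of spots and Syt1 in between 88.5% and 95.6%, but Nefl in at most 7.95%. Among astroglial markers, Slc1a2 was seen in between 42.2% and 72.8% of spots and Gfap in at most 6.34%.

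Tph1 was the member with the widest range. It stood at 105 ppm in VitaminA, 30.4 ppm in BMS753, 5.76 ppm in ATRA and 3.34 ppm in BMS961+BMS641, a range of 31.4-fold. Each section was split into 4 quadrants to show the spread within it, and the quadrants ran from 87.8 to 126 ppm in VitaminA, from 19.3 to 35.9 in BMS753, from 3.26 to 9.47 in ATRA and from 1.37 to 4.65 in BMS961+BMS641. VitaminA was thus above BMS753, and BMS753 above ATRA and BMS961+BMS641, with no overlap of quadrants, while the lowest sections overlapped. Tph1 was seen in 71.7% of VitaminA spots (interval 67.8 to 75.5), in 26.4% of BMS753 spots (22.5 to 30.7), in 8.94% of ATRA spots (6.77 to 11.5) and in 13.2% of BMS961+BMS641 spots (9.86 to 17.1). ATRA was above BMS961+BMS641 in level but below it in share of spots, and the intervals of these shares overlap. Where Tph1 was seen, its median share of the spot's signal was 122 ppm in VitaminA and 25.4 ppm in BMS961+BMS641. In ATRA 94.3% of the spots with Tph1 held it in the first class above the lowest, against 40.2% in VitaminA, and a single spot gave 23.2% of its ATRA signal. Of 19783 genes, 210 (1.06%) exceeded all other sections in share of VitaminA spots by at least as much as Tph1, which did so by 45.3 percentage points.

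Markers of known sources of Tph1 other than neurons were set beside it. The 8 mast cell markers summed to 81.8 ppm in VitaminA, 72.5 with ATRA, 69.1 with BMS753 and 464 with BMS961+BMS641, where Cpa3, a mast cell protease gene, alone held 424 ppm. Without Cpa3 the sums were 78.6, 70.7, 61.8 and 40.5 ppm, highest in VitaminA as Tph1 was. ATRA was above BMS753 in these sums, while Tph1 was higher in BMS753. With Cpa3, the VitaminA quadrants (70.5 to 106 ppm) overlapped those of ATRA (66.9 to 82.6) and BMS753 (62.7 to 83.8). Most of the sums without Cpa3 came from Kit, the stem cell factor receptor gene, and Gata2, which are not particular to mast cells. Kit was at 40.4 ppm in VitaminA and 26.0 to 34.0 elsewhere, in 33.7% to 52.7% of spots. Gata2 was at 32.1 ppm in VitaminA and 32.8 in ATRA. Hdc and Ms4a2, an IgE receptor gene, were highest in ATRA (6.25 and 5.05 ppm), and Fcer1a, Cma1 and Tpsb2 were each seen in at most 2.56% of spots. Pineal markers, of which 5 of 6 were listed, summed to 49.9 ppm in VitaminA, 45.5 with ATRA, 56.7 with BMS753 and 35.2 with BMS961+BMS641. Without Lhx4 these sums were 11.7, 29.0, 30.5 and 19.6 ppm, lowest in VitaminA, where Tph1 was highest. Among them, Lhx4 was highest in VitaminA (38.3 ppm, in 37.0% of spots, against 15.5 to 26.3 ppm elsewhere), Crx was lowest there (5.61 ppm), and Aanat, the enzyme gene of melatonin synthesis, was seen in at most 2.36% of spots. The 6 enterochromaffin and other endocrine genes summed to 113 ppm in VitaminA, 97.9 with ATRA, 149 with BMS753 and 483 with BMS961+BMS641, and without Lmx1a to 15.8, 14.1, 37.4 and 16.0 ppm. The part of these cells in the Tph1 values was not tested.

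The promoter windows of Tph1 are shown because it differed most between sections given different retinoids. Retinoic acid receptors bind repeats of a hexamer, searched here on both strands as AGGTCA and in the variants that read GGGTCA or that read AGTTCA or that read GGTTCA. The windows run from 250 bases before to 50 after a RefSeq start (GRCm38.p6), and 8 of the 9 members had at least 1. Tph1 has 2, both on the minus strand and printed 5′ to 3′ in the direction of the gene, with hexamers in capitals. The window at the distal start lies at chr7:46672488-46672787 and that at the proximal start at chr7:46667328-46667627.
Tph1 distal start: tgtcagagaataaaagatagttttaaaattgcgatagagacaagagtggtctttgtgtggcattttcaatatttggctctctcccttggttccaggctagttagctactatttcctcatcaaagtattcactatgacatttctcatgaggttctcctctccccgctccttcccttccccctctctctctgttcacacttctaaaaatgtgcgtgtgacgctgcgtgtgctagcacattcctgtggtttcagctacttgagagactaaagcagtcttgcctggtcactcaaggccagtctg
Tph1 proximal start: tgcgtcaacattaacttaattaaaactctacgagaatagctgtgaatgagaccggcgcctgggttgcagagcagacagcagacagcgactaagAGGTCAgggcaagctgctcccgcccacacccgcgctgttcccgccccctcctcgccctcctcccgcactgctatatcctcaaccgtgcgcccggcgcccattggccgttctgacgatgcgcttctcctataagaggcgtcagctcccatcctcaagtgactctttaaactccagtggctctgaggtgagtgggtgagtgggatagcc
The proximal window holds 1 match, AGGTCA with its first base at position -157 from the start, and the distal window none. At least 1 of the 4 hexamers occurred in 43.7% of all 32851 windows, and AGGTCA in 16.3%. No member window searched held a direct repeat spaced by 5 or by 2 bases, which 0.0974% and 0.268% of all windows hold. A match is a string of letters and not a measured binding site.

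Tph2, the neuronal isoform, was seen in most spots of every section. Its level was 147 ppm in VitaminA, 118 with ATRA, 90.1 with BMS753 and 55.8 with BMS961+BMS641. No quadrant of a section overlapped with those of the next in this order: they ran from 140 to 158 ppm, from 105 to 136, from 78.6 to 104 and from 44.5 to 63.7. The steps were small, at 1.24-fold, 1.31-fold and 1.62-fold, and the whole range was 2.63-fold. As log2 ratios (1 ppm added), Tph2 was at -0.31 from VitaminA to ATRA, where the median over all genes tested was -0.33. From BMS753 to BMS961+BMS641 it was at -0.68, beside a median of -0.64. In these comparisons Tph2 thus stood close to the median gene. From ATRA to BMS753 it was at -0.39, against a median of 0.71. Tph2 was seen in 79.2% of VitaminA spots, 60.7% of ATRA spots, 52.2% of BMS753 spots and 57.0% of BMS961+BMS641 spots, so its lowest share of spots was in BMS753 and its lowest level in BMS961+BMS641. In these 2 sections its median share of the signal in the spots where it was seen was 158 and 81.8 ppm.

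Spots that held both Tph1 and Tph2 were set against the product of the shares of the 2 genes. In VitaminA 329 spots held both, against a product of 313.5 spots. In ATRA 39 spots held both (product 32.2), in BMS753 78 (64.8) and in BMS961+BMS641 32 (27.4). The ratios of 1.05, 1.21, 1.20 and 1.17, in the order of sections above, lay below the medians over pairs of other genes (1.09, 1.33, 1.31 and 1.25). Those medians cover genes seen in at least 2% of spots. The largest possible ratio falls as the larger share rises, and Tph2 was seen in most spots, so the ratios and medians are not on a like footing. Either gene was seen in 91.3% of VitaminA spots, 63.1% of ATRA spots, 62.0% of BMS753 spots and 61.4% of BMS961+BMS641 spots.

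**Figure D1:**
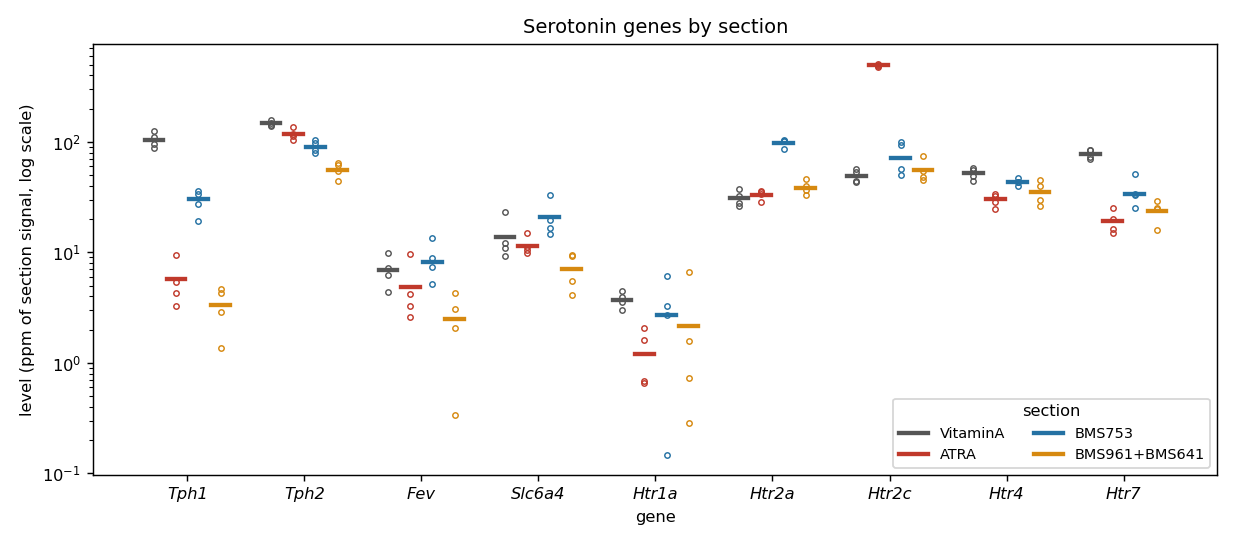
Level of the 9 serotonin genes, in ppm of the section's signal on a log axis. Bars give the level of each section and open circles its 4 quadrants, which describe spread within a section and are not replicates. Tph1 runs from 105 ppm in VitaminA to 3.34 ppm in BMS961+BMS641, and Htr2c stands at 493 ppm in ATRA.

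Fev and Slc6a4, which together with Tph2 mark serotonin neurons, were each seen in fewer than 1 spot in 4 of any section. Fev stood at 6.89 ppm in VitaminA, 4.83 with ATRA, 8.15 with BMS753 and 2.50 with BMS961+BMS641, and was seen in 9.78%, 6.91%, 9.81% and 7.40% of spots in that order. All neighbours in the order of its levels had overlapping quadrants, while BMS961+BMS641 was apart from BMS753 (3.25-fold) and, narrowly, from VitaminA, whose quadrants reached 9.84 ppm against at most 4.30 ppm. Slc6a4 stood at 13.8 ppm in VitaminA, 11.3 with ATRA, 20.8 with BMS753 and 7.03 with BMS961+BMS641, and was seen in 22.6%, 15.9%, 23.5% and 18.1% of spots. Its BMS961+BMS641 quadrants (4.13 to 9.48 ppm) lay just below those of ATRA (9.86 to 14.8 ppm), and the other neighbours overlapped. Nearly all spots with Fev held it in the first class above the lowest (between 92.6% and 100% by section).

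Spots that held Tph2, Slc6a4 and Fev together were rare. There were 13 in VitaminA (2.36%, interval 1.26 to 3.99), 6 with ATRA (1.01%), 11 with BMS753 (2.35%) and 4 with BMS961+BMS641 (1.10%). The products of the 3 shares would give 9.68, 3.95, 5.64 and 2.78 spots. These spots had more genes seen than the section as a whole, with medians of 5818 against 4659 in VitaminA, 6488 against 3388 in ATRA, 5616 against 3330 in BMS753 and 7894 against 4462 in BMS961+BMS641. The part of this depth in the shared spots was not tested. Across the 36 pairs of members, the count of shared spots was above the product in 36 pairs in VitaminA, 32 with ATRA, 35 with BMS753 and 33 with BMS961+BMS641. The median ratio of shared spots to product was 1.11, 1.21, 1.28 and 1.23. Over pairs of genes taken at regular steps along the gene order, 75.5%, 90.6%, 88.2% and 88.2% were above the product. The medians over these pairs were 1.09, 1.33, 1.31 and 1.25. Members seen in most spots, such as Tph2, limit the largest possible ratio, so these medians and those of the members are not on a like footing.

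Among the receptor genes, Htr2c stood out in a single section. It was at 493 ppm in ATRA, against 72.1 ppm in BMS753, 55.2 in BMS961+BMS641 and 49.6 in VitaminA, which is 6.84-fold above the next section. The ATRA quadrants ran from 479 to 511 ppm and those of all other sections from 43.5 to 99.2 ppm, where neighbours overlapped. Htr2c was seen in 95.6% of ATRA spots (interval 93.6 to 97.1), 59.2% of BMS961+BMS641 spots, 48.6% of BMS753 spots and 43.7% of VitaminA spots. Its median share of a spot's signal, where seen, was 440 ppm in ATRA and between 82.0 and 146 ppm elsewhere. In the ATRA section 410 genes (1.96%) were seen in over 90% of spots, and 280 of 19783 genes (1.42%) exceeded all other sections there by at least as many points as Htr2c, which did so by 36.4.

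Choroid plexus markers were set beside Htr2c. The 7 listed in ATRA summed to 189 ppm, the lowest of the 4 sections, whose sums reached 219 ppm. The ATRA quadrants (167 to 213 ppm) overlapped those of every other section, so this order is within the spread. Without Prlr, the prolactin receptor gene, the sums were 84.8 ppm in VitaminA, 76.2 with ATRA and 96.8 with BMS753. In BMS961+BMS641, where 6 markers were listed, that sum was lowest, at 66.6 ppm. Prlr made up 113 ppm of the whole ATRA sum, Kl 39.6 ppm and Clic6 16.9 ppm, none of them highest in ATRA. Otx2 was highest there, at 11.1 ppm in 19.2% of spots against 4.85 to 6.88 ppm elsewhere. Ttr, the transthyretin gene that defines this epithelium, was at 0.474 ppm in ATRA and seen in 1.52% of its spots, and Folr1, a folate receptor gene, in 2.36%. The part of such cells in the Htr2c values was not tested.

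The window of Htr2c is shown as that of the receptor gene with the largest difference between sections. It lies on the plus strand at chrX:146962263-146962562 (GRCm38.p6, RefSeq), with the hexamer match in capitals.
Htr2c: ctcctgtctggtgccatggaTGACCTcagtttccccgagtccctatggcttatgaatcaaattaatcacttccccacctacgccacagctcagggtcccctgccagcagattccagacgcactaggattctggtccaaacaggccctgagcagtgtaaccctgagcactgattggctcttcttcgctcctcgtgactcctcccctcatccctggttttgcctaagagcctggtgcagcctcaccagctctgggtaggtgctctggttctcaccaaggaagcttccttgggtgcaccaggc
It holds 1 match, TGACCT, the reverse complement of AGGTCA, with its first base at position -230 from the start. The windows of Tph2, Slc6a4, Fev, Htr1a, Htr2a and Htr7 held none of the 4 hexamers, which says only that these letters are not in those windows.

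**Figure D2:**
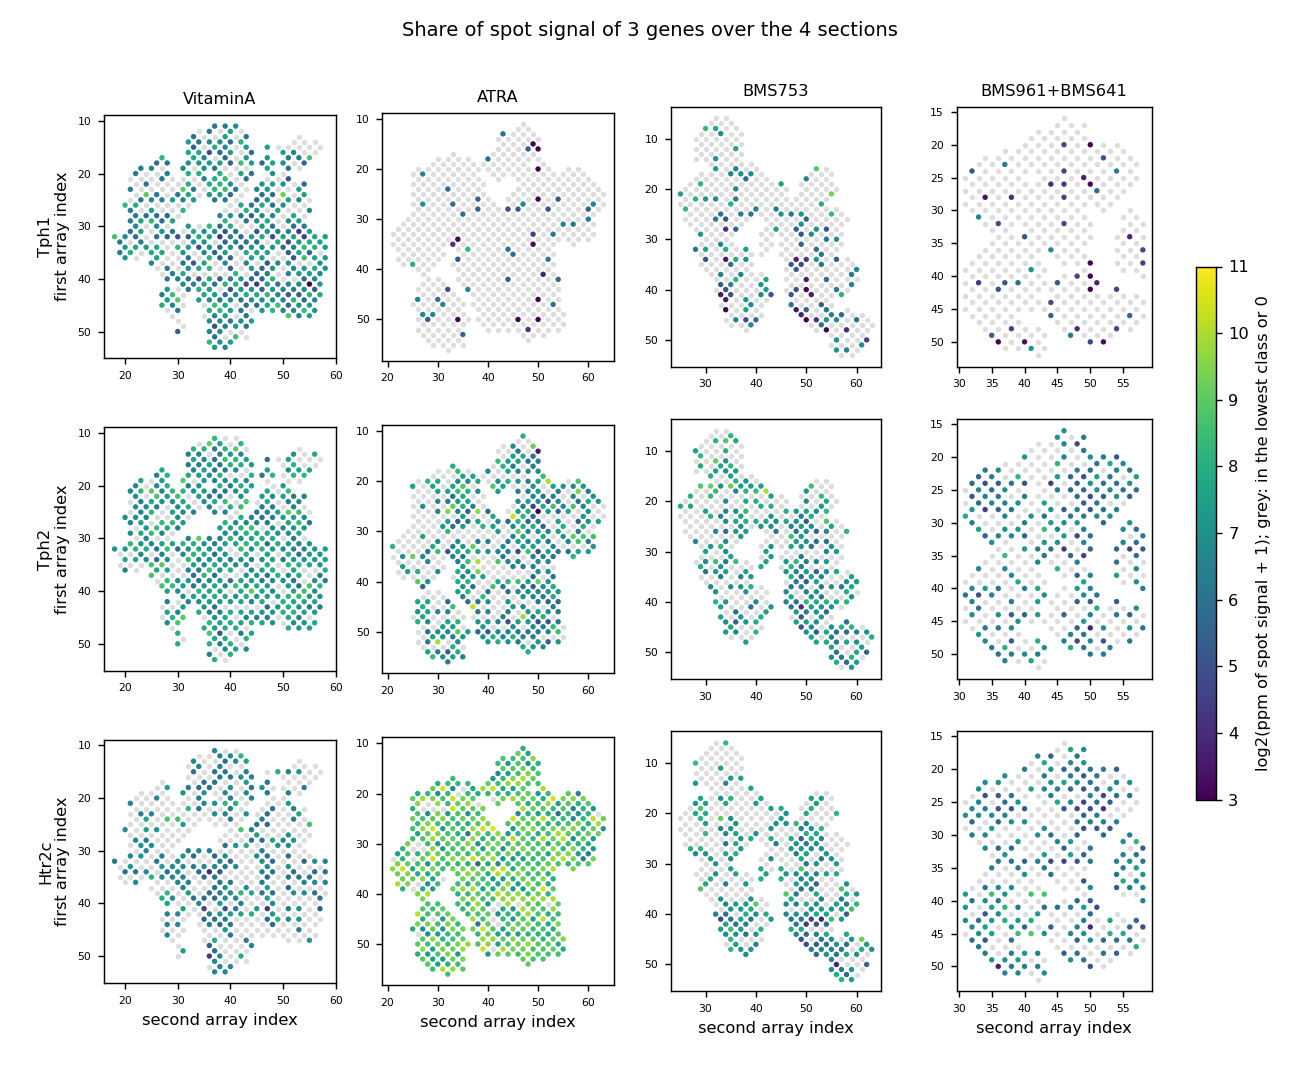
Array maps of Tph1, Tph2 and Htr2c (rows) in the 4 sections (columns). Each point is a spot at its array indices, coloured by log2 of the gene's ppm of that spot's signal plus 1, and grey where the gene was in the lowest class or at 0. Tph1 fills 71.7% of VitaminA spots and 8.94% of ATRA spots, and Htr2c fills 95.6% of ATRA spots.

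Htr2a was high in BMS753. Its level there was 98.3 ppm, against 38.4 in BMS961+BMS641, 33.3 in ATRA and 31.0 in VitaminA. The BMS753 quadrants (86.6 to 105 ppm) lay above those of every other section, which overlapped between 26.3 and 46.1 ppm. Htr2a was seen in 50.7% of BMS753 spots (interval 46.1 to 55.4), 40.8% of BMS961+BMS641 spots (35.7 to 46.1), 27.7% of ATRA spots and 27.5% of VitaminA spots.

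Htr7 was highest in VitaminA, at 78.1 ppm, against 34.0 in BMS753, 23.6 in BMS961+BMS641 and 19.4 in ATRA. The VitaminA quadrants (69.8 to 85.0 ppm) lay above all others (14.8 to 51.5 ppm), and the 3 ligand sections overlapped as neighbours. Spots with Htr7 made up 67.9% of the VitaminA section, 38.2% of BMS753, 40.3% of BMS961+BMS641 and 30.5% of ATRA. Htr4, the other receptor gene linked to cyclic AMP, varied least, from 52.0 ppm in VitaminA through 42.9 in BMS753 and 35.2 in BMS961+BMS641 to 30.1 in ATRA. Every pair of neighbours in this order overlapped, while ATRA was apart from VitaminA (1.73-fold) and from BMS753. Htr4 was seen in between 37.6% and 54.0% of spots.

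Htr1a was near the floor of the data. It stood at 3.74 ppm in VitaminA, 2.74 in BMS753, 2.17 in BMS961+BMS641 and 1.20 in ATRA, and was seen in 43, 16, 8 and 13 spots. In BMS961+BMS641 a single spot gave 62.0% of its signal. Neighbours in the order of sections overlapped, and only the highest and the lowest, 3.12-fold apart, did not.

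Between sections, a gene was called where its levels were at least 2-fold apart, with 1 ppm added to each, at least 5 ppm in either section, and all quadrants of one section above all of the other. Calls were common among all genes. From VitaminA to ATRA 30.1% of 14794 genes were called (8.33% higher, 21.8% lower), and 3 of the 9 members: Htr2c was higher (log2 ratio 3.29, 3.05 to 3.52 over the 16 pairs of quadrants), and Tph1 (-3.97, -4.90 to -3.09) and Htr7 (-1.95, -2.44 to -1.43) were lower. From VitaminA to BMS753 21.6% of genes were called (12.4% higher, 9.29% lower), and 3 members: Htr2a higher at 1.63 (1.18 to 1.95), Tph1 lower at -1.76 (-2.65 to -1.27) and Htr7 lower at -1.18 (-1.71 to -0.43). From VitaminA to BMS961+BMS641 28.2% of genes were called (9.43% higher, 18.8% lower), and 4 members, all lower: Tph1 at -4.61 (-5.75 to -3.98), Htr7 at -1.68 (-2.35 to -1.24), Tph2 at -1.38 (-1.81 to -1.12) and Fev at -1.17 (-3.02 to -0.03). These 3 comparisons share the VitaminA section, so a gene high there alone is low in each of them. Htr1a did not reach 5 ppm in any section and could not be called.

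Beside these shares, 3 or 4 calls among 9 members are no result about the group, and the sizes for single genes were read instead. The log2 ratio of Tph1 was below those of all but 0.879% of genes in ATRA over VitaminA and all but 0.341% in BMS961+BMS641 over VitaminA. That of Htr2c in ATRA over VitaminA was above 98.4% of genes. The median log2 ratio over all 9 members was -0.44 for ATRA, -0.27 for BMS753 and -0.88 for BMS961+BMS641, each over VitaminA, beside medians of -0.33, 0.31 and -0.25 over all genes tested. The calls of Tph1 in these 3 comparisons, and those of Htr2c and Htr7 in ATRA, were made under all 10 other settings tried. That of Fev in BMS961+BMS641 was made under 4 of 10 settings, and neither Tph2 (-0.82) nor Fev (-0.64) was called there from the signal with no scaling to ppm. As shares of spots, 6 of the 19 calls over all 6 comparisons were made, namely these 5 and Tph1 in BMS753 over ATRA. With every spot scaled to the same sum, Htr7 in BMS753 over VitaminA was at -0.97 and was not called.

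Between the ligand sections, ATRA and BMS753 had the same dose. From ATRA to BMS753, where 28.6% of genes were called (21.6% higher, 6.98% lower), Tph1 (2.21, 0.96 to 3.11) and Htr2a (1.53, 1.26 to 1.85) were higher and Htr2c lower (-2.76, -3.32 to -2.26). With interior spots alone Tph1 was not called (1.89). Relative to the median of all genes, which was itself 0.71, Htr2a was no longer called (0.82) and Tph2 was, as lower (-1.10). From ATRA to BMS961+BMS641, given at different doses, 25.2% of genes were called (14.3% higher, 10.9% lower), and Htr2c (-3.14) and Tph2 (-1.07) were lower. With no scaling, Tph2 was at -0.11 there, and Htr2a (1.12), Htr4 (1.13) and Htr7 (1.15) were called higher. From BMS753 to BMS961+BMS641, again at different doses, 26.8% of genes were called (7.58% higher, 19.2% lower). Tph1 (-2.85), Slc6a4 (-1.44), Fev (-1.38) and Htr2a (-1.33) were lower, in a comparison whose median over all genes was -0.64. Relative to that median, Slc6a4 (-0.80), Fev (-0.74) and Htr2a (-0.69) were not called.

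**Figure D3:**
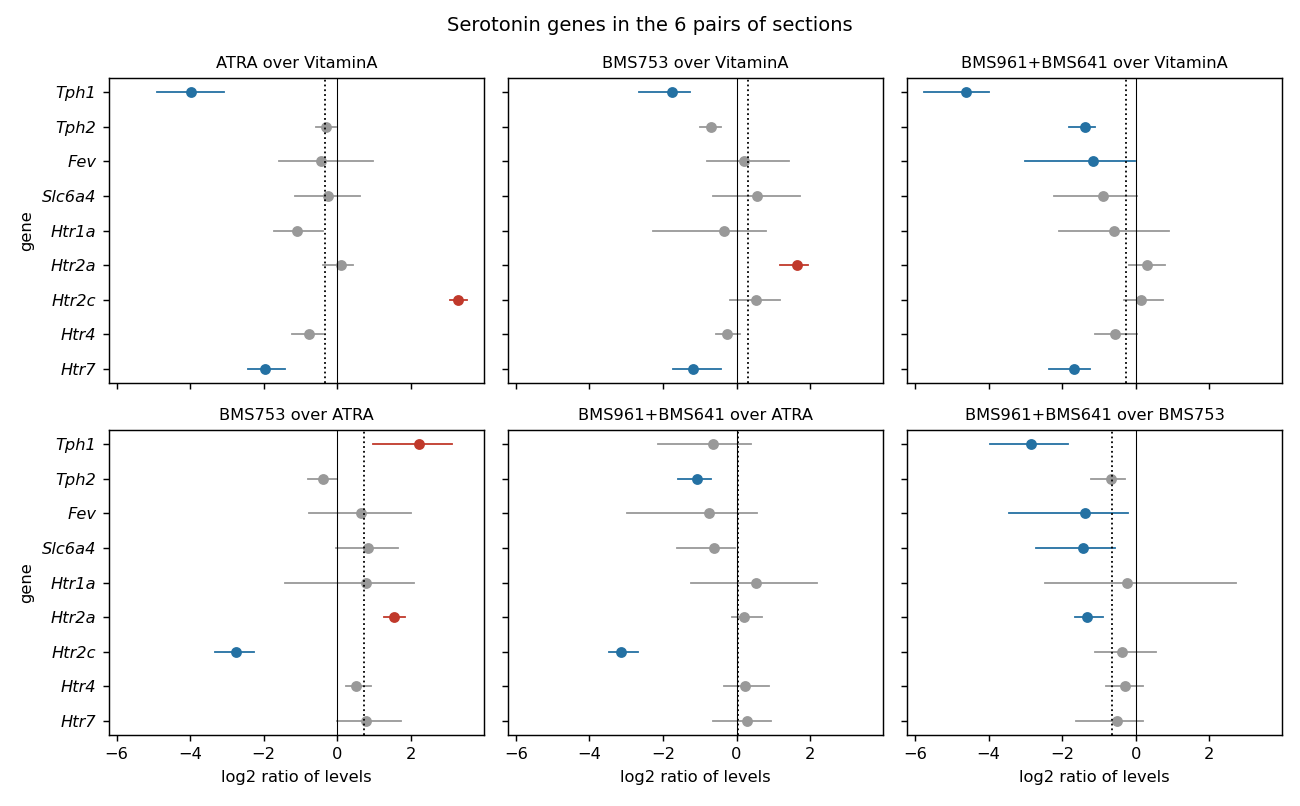
Log2 ratio of levels (1 ppm added) of the 9 serotonin genes in the 6 pairs of sections. Points give the ratio of whole sections, lines its range over the 16 pairs of quadrants, red and blue points genes called higher and lower, and the dotted line the median of all genes tested. Tph1 lies at -3.97, -1.76 and -4.61 against VitaminA, and Htr2c at 3.29 in ATRA over VitaminA.

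The other genes of serotonin handling went several ways. They and the transcription factor genes below were listed for a part in serotonin biology, and which cells gave their signal was not tested. Of 9 further receptor genes 8 were listed. From VitaminA to BMS961+BMS641, 3 were called higher and 1 lower, where 9.43% of all genes were called higher and 18.8% lower. Htr5a stood at 181 ppm in BMS961+BMS641, against 10.1 in VitaminA, 11.2 in ATRA and 5.91 in BMS753, and was seen in 83.0% of its spots. Htr3a, which encodes a subunit of the ion channel receptor of serotonin, was at 52.4 ppm there and at most at 11.4 ppm elsewhere, and Htr5b at 14.2 and at most 4.09 ppm. Htr6 was highest in VitaminA, at 21.0 ppm, and lowest in BMS961+BMS641, at 4.88. From VitaminA to ATRA 1 receptor gene of this list was called lower, where 21.8% of all genes were. From VitaminA to BMS753 none was called, where 12.4% of all genes were called higher and 9.29% lower. The other comparisons share these sections, with 3 of the 8 higher in BMS961+BMS641 over ATRA and over BMS753, and 1 higher in BMS753 over ATRA. Over all genes 14.3%, 7.58% and 21.6% were called higher in these comparisons, in that order.

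Of the 10 genes of synthesis, cofactor supply, storage and breakdown, 2 were called lower from VitaminA to ATRA, 2 higher and 2 lower to BMS753, and 4 lower to BMS961+BMS641. Over all genes the shares were 21.8% lower for ATRA, 12.4% higher and 9.29% lower for BMS753, and 18.8% lower for BMS961+BMS641. Gch1, the first enzyme of the cofactor that tryptophan hydroxylase needs, was at 137 ppm in VitaminA and at 15.8, 19.7 and 26.5 ppm in ATRA, BMS753 and BMS961+BMS641. Slc18a1, a vesicular monoamine transporter gene of endocrine cells, was likewise highest in VitaminA (17.5 ppm, at most 5.02 elsewhere). Ddc, which encodes the decarboxylase of the last step of synthesis, was highest in BMS753 (87.8 ppm, at most 12.9 elsewhere), as were Slc18a2, the vesicular transporter gene of neurons (36.5 ppm, at most 16.7 elsewhere), and Spr, which serves cofactor synthesis (8.36 ppm, at most 4.12 elsewhere). Spots with Tph2, Ddc, Slc18a2 and Slc6a4 together numbered 12 in VitaminA, 6 with ATRA, 19 with BMS753 and 5 with BMS961+BMS641. The products of the 4 shares are 4.58, 0.847, 7.17 and 0.815 spots. These spots had medians of 5558.5, 7326, 6152 and 10731 genes seen, above those of their sections. Pairs of other genes also shared more spots than their product, with median ratios of 1.09, 1.33, 1.31 and 1.25 in the same order. Sets of 4 other genes were not counted, and the part of depth in the shared spots was not tested. The list's median log2 ratio from VitaminA was -0.53 for ATRA, 0.43 for BMS753 and -1.05 for BMS961+BMS641. The medians over all genes tested were -0.33, 0.31 and -0.25. From BMS753 to BMS961+BMS641 4 of the 10 were called lower, from ATRA to BMS753 3 higher, and from ATRA to BMS961+BMS641 1 lower. Over all genes the shares called in these directions were 19.2%, 21.6% and 10.9%.

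Of 9 transcription factor genes of serotonergic neurons and their progenitors, 2 were called lower from VitaminA to ATRA, 1 to BMS753 and 3 to BMS961+BMS641, and none higher. Over all genes 21.8%, 9.29% and 18.8% were called lower and 8.33%, 12.4% and 9.43% higher. En1, a patterning gene of the midbrain and anterior hindbrain, was at 86.8 ppm in VitaminA, 18.4 in BMS753, 4.59 in BMS961+BMS641 and 3.60 in ATRA, with the same 2 highest sections as Tph1. Gata3 was at 66.1 ppm in VitaminA and 22.9 in ATRA, and Gata2 at 32.8 ppm in ATRA and 10.2 in BMS961+BMS641. Lmx1b, which serotonin neurons need to form in mice, was highest in BMS753 (109 ppm) and lowest in BMS961+BMS641 (42.3 ppm). Nkx2-2 was at most at 5.46 ppm. The median log2 ratio of this list was -0.74, -0.86 and -0.93 in ATRA, BMS753 and BMS961+BMS641 over VitaminA. Medians over all genes tested were -0.33, 0.31 and -0.25. From ATRA to BMS753 2 were higher, from ATRA to BMS961+BMS641 1 was lower, and from BMS753 to BMS961+BMS641 2 were lower. Over all genes 21.6%, 10.9% and 19.2% were called in these directions, so these counts are no result about the list. The 12 neuronal markers summed to 974 ppm in VitaminA, 902 with ATRA, 1198 with BMS753 and 1306 with BMS961+BMS641, where Stmn2 alone held 533 ppm. The 8 astroglial markers summed to 194, 89.6, 188 and 116 ppm in the same order.

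Calls among markers of other cell types are read beside the shares over all genes called from VitaminA, which were 8.33% higher and 21.8% lower for ATRA, 12.4% and 9.29% for BMS753, and 9.43% and 18.8% for BMS961+BMS641. From VitaminA, neuronal markers had 4 lower with ATRA, 1 higher and 2 lower with BMS753, and the same numbers with BMS961+BMS641. Elavl4, an RNA-binding protein gene of neurons, was at 17.7 ppm in ATRA against 108 in VitaminA, and Gap43, a growth cone gene, at 37.9 ppm in BMS961+BMS641 against 156 in ATRA. Of the astroglial markers 3 were lower with ATRA, 1 higher and 1 lower with BMS753, and 2 lower with BMS961+BMS641. Among them, Aqp4, the water channel gene of astrocytes, was at 3.44 ppm in ATRA and 15.4 in VitaminA, and Slc1a2, a glutamate transporter gene, at 27.5 ppm in BMS961+BMS641 and 97.9 in VitaminA. Sox9 stood at 26.6 ppm in BMS961+BMS641 and 7.61 in ATRA. Of the choroid plexus markers 1 was lower with ATRA and 1 with BMS961+BMS641, and Aqp1 was at 17.9 ppm in BMS753 and 7.89 in ATRA. Of the mast cell list 1 was higher with ATRA, and 1 higher and 1 lower with BMS961+BMS641, where Hdc, the histamine synthesis gene, was at 0.626 ppm against 6.25 in ATRA. Pineal markers had 1 higher and 1 lower with ATRA, 1 higher with BMS753 and 1 lower with BMS961+BMS641. Crx was at 21.6 ppm in BMS753 and 5.61 in VitaminA, and Lhx4 at 15.5 ppm in BMS961+BMS641 and 38.3 in VitaminA. Of the endocrine list 1 was higher with BMS753 and 1 with BMS961+BMS641, and Chga was at 24.0 ppm in BMS753 and 7.01 in VitaminA. The part of these cell types in the results was not tested.

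Detection of the members varied with genomic span, the distance from the first to the last base of a gene in RefSeq (GRCm38.p6), which is not the build of the files. Fev (3.97 kb) and Htr1a (4.44 kb) have the shortest spans and were seen in the fewest spots, whereas Tph2 (106 kb), Htr4 (179 kb) and Htr2c (235 kb) are long. Over the 9 members span and share of spots had a Spearman correlation of 0.55 for VitaminA, 0.97 with ATRA, 0.78 with BMS753 and 0.95 with BMS961+BMS641. Over all genes it was 0.83, 0.80, 0.84 and 0.80. These are descriptions over genes of the same libraries. Levels were therefore not compared between members. Tph1 in VitaminA lies away from this relation, with 71.7% of spots at 27.9 kb, next to Slc6a4 with 22.6% at 33.7 kb.

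**Figure D4:**
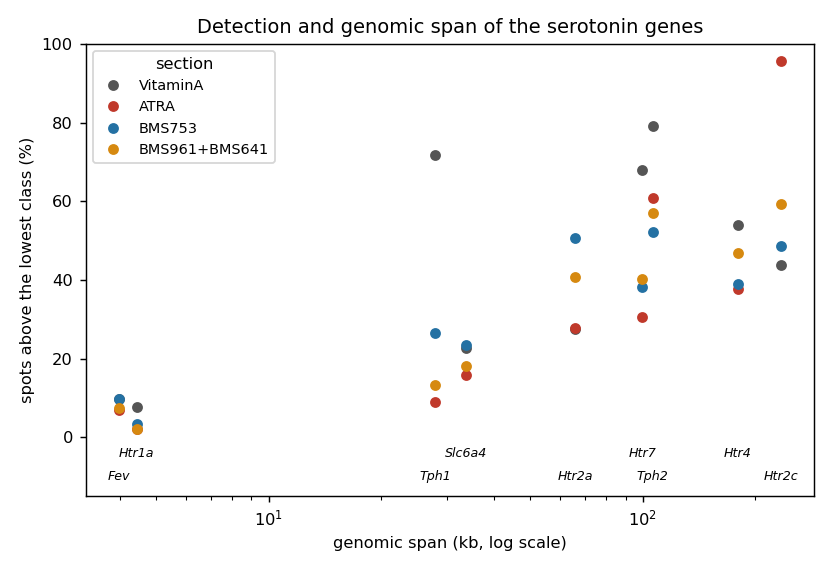
Share of spots in which each of the 9 serotonin genes was seen, against genomic span in kb on a log axis, with 1 point per section. Short genes such as Fev and Htr1a lie at or below 9.81% in every section, and Tph1 in VitaminA lies at 71.7%.

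Within sections the members showed little spatial order. Moran's I, which is near 0 for a random arrangement, was computed over 8 grid neighbours on log2 of the share of a spot's signal. Its median over all genes seen in at least 5% of spots was between 0.02 and 0.03 by section, and the 95th percentile between 0.17 and 0.30. No member seen in at least 5% of spots exceeded that percentile in any section. The highest values were those of Htr2c in BMS753 (0.12, percentile 84.5), Tph2 in ATRA (0.08, percentile 85.2), Htr2c in ATRA (0.08, percentile 84.1) and Tph1 in VitaminA (0.08, percentile 87.3). In BMS753 Htr2c was at 56.7 and 50.4 ppm in the quadrants of low first array index and at 99.2 and 93.9 ppm in the others. The number of genes seen per spot was more ordered than any member, with values between 0.33 and 0.54. Spots with a member had more genes seen than spots without it for all 9 members in all sections, for Tph1 in VitaminA with medians of 4974.5 against 3765.5. At the edge of sections, in spots with fewer than 8 neighbours, Tph2 was seen in 73.7% of VitaminA spots against 82.7% inside, and Slc6a4 in 18.3% of BMS753 spots against 27.2%.

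By the likeness of levels over the 16 quadrants of the 4 sections, Htr7 was the member closest to Tph1 (Pearson r = 0.90 on log2 levels), and Htr4 was closest to Htr7 after it (0.76). Htr2c ran against Htr4 (-0.59). Sections differ more than quadrants do, so these values rest mostly on 4 sections and are descriptions. Among other genes of at least 20 ppm in some section, the closest to Tph1 were Dpy19l1 (0.97), Kif21b (0.97), a kinesin gene, and Ank2 (0.97), an ankyrin gene. Dpy19l1 stood at 412 ppm in VitaminA, 121 in BMS753, 37.4 in ATRA and 33.2 in BMS961+BMS641. In all, 229 of 9148 such genes exceeded 0.9 with Tph1. Closest to Htr2c were Abcb11, the bile salt export pump gene (0.99), Pou2f2 (0.99) and Slc29a1, a nucleoside transporter gene (0.98), which stood at 803, 688 and 801 ppm in ATRA and at most at 54.5 ppm elsewhere, and 422 genes exceeded 0.9. Closest to Htr2a were Plcg2, Chd6 and Adam29 (each 0.96), closest to Tph2 Veph1 (0.95), Enthd1 (0.94) and Spock3 (0.94), and closest to Htr7 Cfap70 (0.97), Dscaml1 (0.97) and Fzd10os (0.96). Htr4 had Ebf2 (0.94), Bmpr2 (0.90) and Dipk1a (0.89), and Slc6a4 had Chst11 (0.88), Ppp1r13b (0.87) and Rhbdf2 (0.85).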

How the data were processed

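Cryosections of organoids were captured on printed barcoded poly-T arrays and sequenced as paired ends, per the labels' protocols. Each deposited table holds a signal for every gene in every spot, quantile normalised by the authors, per the names of the files. On the values, all spots of a section held the same sorted signal times a factor of their own. The submitters' processing notes name the build mm9. The aligner, the counting and the spot filter were not given in the sources used here. Ties at the bottom were split by gene order, which shifts low levels, so the lowest class was also set to 0.

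Levels, calls, quadrants and shares of spots were computed as the report defines them. The 4 groups have 1 section each, and the 6 pairs were compared with no test. Quadrants were split at the median of the first array index, then of the second. The 9 members and 9 lists were chosen with earlier results of these data known. All members were named, with up to 5 called genes of each serotonin list and 3 of each marker list by largest log2 ratio, and the 3 genes nearest each member of at least 20 ppm. Other leading or rarely seen markers (Rbfox3, Syt1, Nefl, Gfap, Prlr, Kl, Clic6, Otx2, Ttr, Folr1, Kit, Ms4a2, Fcer1a, Cma1, Tpsb2, Aanat) were named after their values were seen. The steps were run on simulated sections of like depth and with no spatial order, so differences of depth between sections were not covered. Alternatives changed scaling, floor, summary, pseudocount, spots and centring. Tools were scipy 1.17.1, pandas 2.3.3, numpy 2.4.6 and matplotlib 3.10.9 under Python 3.11.15.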

Additional observations from a re-analysis of the deposited data

How the results depend on the processing

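No paired analysis was possible because each group has 1 section and no result comes from a test. Of the 19 calls of members, all were kept with the lowest class at 0 and with a pseudocount of 0.1 ppm. All were also kept without the spots of second array index 50 (chosen after the data were seen). Interior spots kept 18, a pseudocount of 5 ppm 17, a trimmed mean 16 and equal spot sums 15. Centred ratios kept 14, no scaling 13 and shares of spots 6. No call turned. Shares end at 100%, and the highest of any member were those of Htr2c in ATRA (95.6%) and Tph2 in VitaminA (79.2%).

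The members' median log2 ratio moved by more than its standard deviation over quadrant pairs as follows. With no scaling it was -0.71 in ATRA over VitaminA, -0.35 in BMS961+BMS641 over VitaminA and 0.49 in BMS753 over ATRA, and its sign turned in BMS961+BMS641 over ATRA (0.23) and over BMS753 (0.32). With trimmed means it was -0.89 in ATRA over VitaminA and turned to 0.12 in BMS961+BMS641 over ATRA. As shares of spots it was -0.36 in BMS961+BMS641 over VitaminA, 0.45 in BMS753 over ATRA and -0.31 in BMS961+BMS641 over BMS753, and turned to 0.18 in BMS961+BMS641 over ATRA. Centred, it was -0.11 in ATRA over VitaminA, 0.05 in BMS753 over ATRA and -0.04 in BMS961+BMS641 over BMS753. With interior spots it turned to 0.04 in BMS753 over VitaminA, with equal spot sums it was -0.15 in BMS961+BMS641 over ATRA, and with a pseudocount of 5 ppm 0.45 in BMS753 over ATRA. The cause was not tested.

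The number of members called went from 3 to 1 as shares of spots in BMS753 over VitaminA and over ATRA. In BMS961+BMS641 over VitaminA it went from 4 to 2 with no scaling and to 1 as shares. Over ATRA it went from 2 to 4 with no scaling, to 1 with equal spot sums and to 0 as shares. Over BMS753 it went from 4 to 1 with no scaling, to 0 as shares, to 2 with trimmed means and to 1 when centred. The depth of spots is unknown, and its part in the values of genes seen in few spots, such as Fev and Htr1a, was not tested.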

Other observations

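A line of the array stood apart in the 3 ligand sections. The spots of second array index 50 had a median of 7683.5 genes seen in ATRA, against 3310 in the other spots, 7249 against 3266 in BMS753 and 9690 against 4360 in BMS961+BMS641. In VitaminA they had fewer, 2876.5 against 4714.5. The line holds between 14 and 20 spots by section.

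The serotonin genes were seen more often on this line in the ligand sections. Slc6a4 was seen in 78.6% of its 14 spots in BMS961+BMS641, against 15.7% of the others, so that 11 of the 66 spots with Slc6a4 lay on it. In ATRA the shares were 65.0% and 14.1%, and in BMS753 33.3% and 23.1%. Tph2 was seen in all 20 spots of the line in ATRA, against 59.3% of the others, and Htr7 in 92.9% against 38.2% in BMS961+BMS641. For Tph1 in ATRA the line held 5 of the 53 spots with the gene. Without these spots, all 19 calls of members were kept.

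None of the 9 genes was seen in fewer than 8 spots of a section, and spots with none of the 9 genes made up 1.99% in VitaminA, 1.69% with ATRA, 8.10% with BMS753 and 6.30% with BMS961+BMS641. The median spot held 4 of them in VitaminA and 3 in each ligand section.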
